A study of Mus musculus with 6 samples.

Results

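The transcripts described here were 10 genes of the NF-kB pathway, 5 of its subunit and regulatory genes (Nfkb1, Nfkb2, Rel, Relb and Bcl3) and 5 genes of its feedback and adaptor proteins (Nfkbia, Nfkbie, Tnfaip3, Birc3 and Traf1). They were picked out by symbol, and all 10 were found among the 23284 genes in the files. Their choice was made with the difference between the groups in these libraries known, so that difference is given as a description and was not tested for them. RNA was measured by RNA-Seq in C1498 cells, a murine line labelled as acute myeloid leukemia (AML), which carried a retroviral GFP gene and came from 1 selected single-cell clone. The cells had been injected into the veins of C57BL/6J mice, for which the methods of the study give female animals 8 to 10 weeks of age as the default, and were sorted on day 21 from bone marrow as GFP+ CD49b+ cells. The 3 cytarabine libraries came from mice given cytarabine, a nucleoside analog used against AML, and the 3 control libraries from mice that the labels call both PBS-treated and untreated. The dose and days of injection are given for the imaging mice and not for these mice in particular. Every library is from a different mouse, and the libraries are numbered within their group.

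NF-kB is a family of dimeric transcription factors built from the products of Nfkb1, Nfkb2, Rel, Rela and Relb. In resting cells the dimers are held in the cytoplasm by IkB proteins, and kinases of the IKK complex release them by marking IkB for destruction after signals from receptors of the TNF, interleukin-1, Toll-like and antigen receptor families. A slower, non-canonical arm runs through the kinase NIK and processes the Nfkb2 product to pair with RelB. Many of the genes that NF-kB switches on encode its own inhibitors and subunits, which is why the pathway shuts itself off and why these mRNAs are widely used as its readout in blood cells.

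The values were FPKM, a read density scaled by transcript length and by the size of the library, which allows levels to be compared between genes. Library totals inferred from the steps between low values were 11440000 to 18790000 reads. At these totals the level of a member rested on roughly 30 reads (Traf1 in control 2, with a Poisson interval of 20.5 to 43.2 for counting error) to 4910 reads (Nfkb1 in control 2). Markers of the labelled type were mixed. The leukocyte gene Ptprc was at 284 to 386 FPKM. Itga2, which encodes the CD49b of the sort gate, was at 7.79 to 8.11 FPKM with cytarabine and 10.6 to 13.3 FPKM in controls. Of the T cell receptor complex, Cd3e and Cd3g were at 130 to 199 and 449 to 652 FPKM. Cd3d and Cd247 of the same complex were at only 3.61 to 9.99 and 0.284 to 0.765 FPKM. Of the myeloid genes, Cd33, Cebpa, Itgam, Csf1r and Spi1 reached at most 2.12, 2.18, 4.76, 5.81 and 7.72 FPKM, and Mpo was at 71.1 FPKM in cytarabine 1, 3.13 and 2.33 FPKM in cytarabine 2 and 3, and 7.83 to 12.3 FPKM in controls. The libraries also carried transcripts of other tissues that divided them across the groups. The summed FPKM of 9 colon genes was 3077 and 3328 in cytarabine 2 and 3 and 1551 in control 1, against 239 in cytarabine 1 and 19.6 and 21.7 in control 2 and 3. The summed FPKM of 8 heart genes was highest in control 1, at 2518. The summed FPKM of 8 neutrophil genes was 1433 in cytarabine 1, 199 and 189 in cytarabine 2 and 3, and 1438 to 2043 in controls. In bulk RNA, fewer cells of a type and less RNA per cell cannot be told apart. The part of these transcripts in the results below was not tested.

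The proximal promoters of the members were searched for the kB consensus, the 10-base pattern that NF-kB dimers bind, on both strands. RefSeq promoters of GRCm38.p6, the same genome as mm10, were used, each with 250 bases before and 50 bases after a transcription start. A match was found in 2779 of all 32851 promoters (8.46%). Of the 8 members with an entry, 6 had a match in at least 1 promoter (Nfkb2, Rel, Nfkbia, Nfkbie, Tnfaip3 and Bcl3), and Birc3 and Traf1 had no match in this window. The percentage counts single promoters, while the members are counted by gene, and Nfkb2 and Tnfaip3 have more than 1 promoter. Because the members were chosen as NF-kB subunit and feedback genes, nothing is read from their count beside that percentage. The promoter set used here had no entry for Nfkb1 and Relb, so these genes were not searched. The promoter of Rela, a subunit gene outside the members, had no match. These matches are a description of the letters and not of binding. For each of these 6 genes the first promoter is printed to show the letters that match, and promoters 2 and 3 of Nfkb2, which also had matches, are not printed. The sequences run from 5′ to 3′ on the strand of the gene, with the matches in capitals. They lie at chr19:46304487-46304786 (plus strand) for Nfkb2, chr11:23770920-23771219 (minus strand) for Rel, chr12:55492598-55492897 (minus strand) for Nfkbia, chr17:45555450-45555749 (plus strand) for Nfkbie, chr10:19015361-19015660 (minus strand) for Tnfaip3 and chr7:19822706-19823005 (minus strand) for Bcl3.
Nfkb2: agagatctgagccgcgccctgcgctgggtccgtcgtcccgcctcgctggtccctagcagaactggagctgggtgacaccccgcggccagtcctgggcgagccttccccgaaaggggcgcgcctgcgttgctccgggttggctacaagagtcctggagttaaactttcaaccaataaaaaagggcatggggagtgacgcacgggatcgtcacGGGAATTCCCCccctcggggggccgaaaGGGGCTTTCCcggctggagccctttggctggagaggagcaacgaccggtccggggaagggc
Rel: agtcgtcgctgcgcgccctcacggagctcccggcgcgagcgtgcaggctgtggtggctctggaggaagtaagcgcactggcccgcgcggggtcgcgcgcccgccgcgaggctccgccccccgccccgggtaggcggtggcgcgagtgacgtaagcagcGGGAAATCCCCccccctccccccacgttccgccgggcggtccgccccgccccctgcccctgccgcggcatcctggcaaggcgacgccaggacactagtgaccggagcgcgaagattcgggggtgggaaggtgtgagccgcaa
Nfkbia: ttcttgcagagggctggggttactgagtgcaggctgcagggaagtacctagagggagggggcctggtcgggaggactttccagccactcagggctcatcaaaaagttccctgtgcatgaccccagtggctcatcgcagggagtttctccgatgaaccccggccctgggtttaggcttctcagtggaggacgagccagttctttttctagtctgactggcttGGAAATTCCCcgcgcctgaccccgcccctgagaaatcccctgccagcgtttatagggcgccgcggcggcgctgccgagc
Nfkbie: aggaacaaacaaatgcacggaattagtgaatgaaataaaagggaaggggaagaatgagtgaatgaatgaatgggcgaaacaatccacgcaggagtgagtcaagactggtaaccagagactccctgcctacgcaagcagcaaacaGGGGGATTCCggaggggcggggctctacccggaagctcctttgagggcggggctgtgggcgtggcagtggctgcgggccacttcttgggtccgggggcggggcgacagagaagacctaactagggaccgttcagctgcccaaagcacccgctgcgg
Tnfaip3: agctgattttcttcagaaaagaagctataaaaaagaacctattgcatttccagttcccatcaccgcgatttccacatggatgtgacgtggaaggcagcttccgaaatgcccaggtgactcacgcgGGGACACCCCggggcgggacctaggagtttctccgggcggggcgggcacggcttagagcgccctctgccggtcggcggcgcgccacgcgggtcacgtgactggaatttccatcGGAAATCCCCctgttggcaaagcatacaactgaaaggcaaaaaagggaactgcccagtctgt
Bcl3: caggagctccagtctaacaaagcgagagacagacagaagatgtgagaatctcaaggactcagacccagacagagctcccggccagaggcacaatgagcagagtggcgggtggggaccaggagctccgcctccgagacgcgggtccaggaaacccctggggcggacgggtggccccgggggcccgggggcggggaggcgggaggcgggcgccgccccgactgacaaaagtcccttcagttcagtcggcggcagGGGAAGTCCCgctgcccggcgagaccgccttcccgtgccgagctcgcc
Counted from the transcription start, the match of Nfkbia ran from base -29 to -20 and read GGGAATTTCC on the opposite strand. In Rel, overlapping matches on both strands began at bases -92 and -91. The first promoter of Nfkb2 had overlapping matches from base -39 to -29 and another from -11 to -2. Promoter 2 had GGGACATTCC from -236 to -227 on the opposite strand and GGGACTTTCC at bases 11 to 20, after the start. Promoter 3 overlaps promoter 2, and its GGGACTTTCC from -225 to -216 is the same site in the genome. The match of Bcl3 also lay after the start, at bases 3 to 12. Tnfaip3 had matches at -125 to -116 and at -12 to -3, and Nfkbie at -106 to -97.

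**Figure D1:**
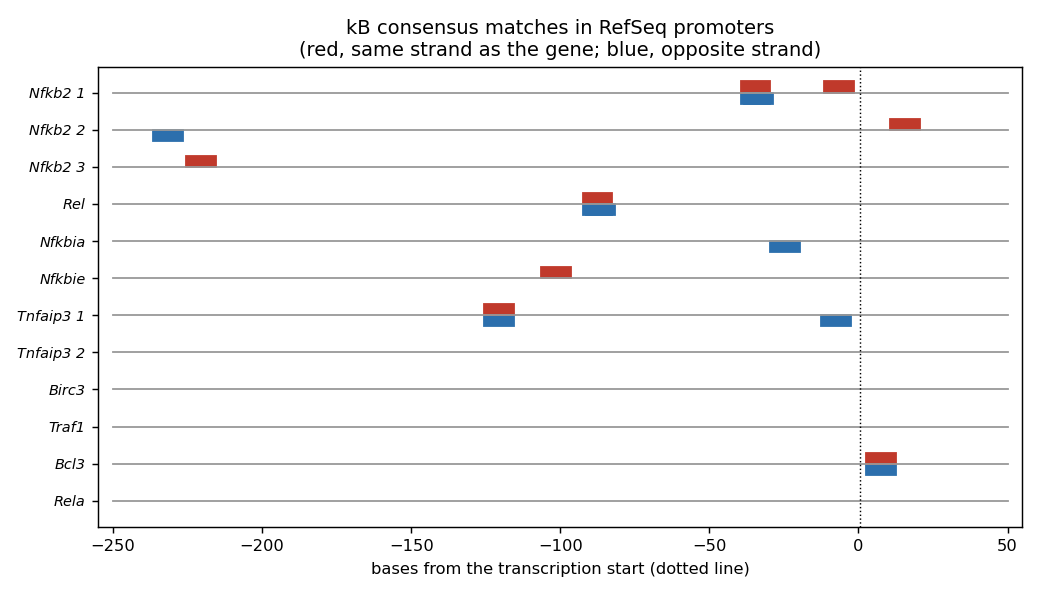
Map of kB consensus matches in the RefSeq promoters of the members with an entry and of Rela. The horizontal axis is the distance in bases from the transcription start, each line is 1 promoter, and boxes are 10-base matches on the strand of the gene (red) or the opposite strand (blue). The lines of Birc3, Traf1, Rela and the second Tnfaip3 promoter carry no box.

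For 9 of the 10 members, all 3 cytarabine values exceeded all 3 control values, which was true of 10.9% of the 11703 genes tested, while the reverse was true of 12.9% and of no member. The exception was Nfkb1. The choice of the members used this same contrast, so nothing is read from that count. The median difference of the 10 members was 0.91 on the log2(FPKM + 1) scale, cytarabine minus control, beside -0.0015 for all genes tested. The differences of all genes were skewed upward, with the 5th percentile at -0.45 and the 95th at 1.12, and of the members only Traf1 was above that band. No gene of the 11703 had an adjusted p under 0.05 from limma with Benjamini-Hochberg adjustment (2038 had an unadjusted p under 0.05), and so no member did. For the 9 genes the ratios of the group means ran from 1.57 (Nfkb2) to 3.87 (Traf1).

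**Figure D2:**
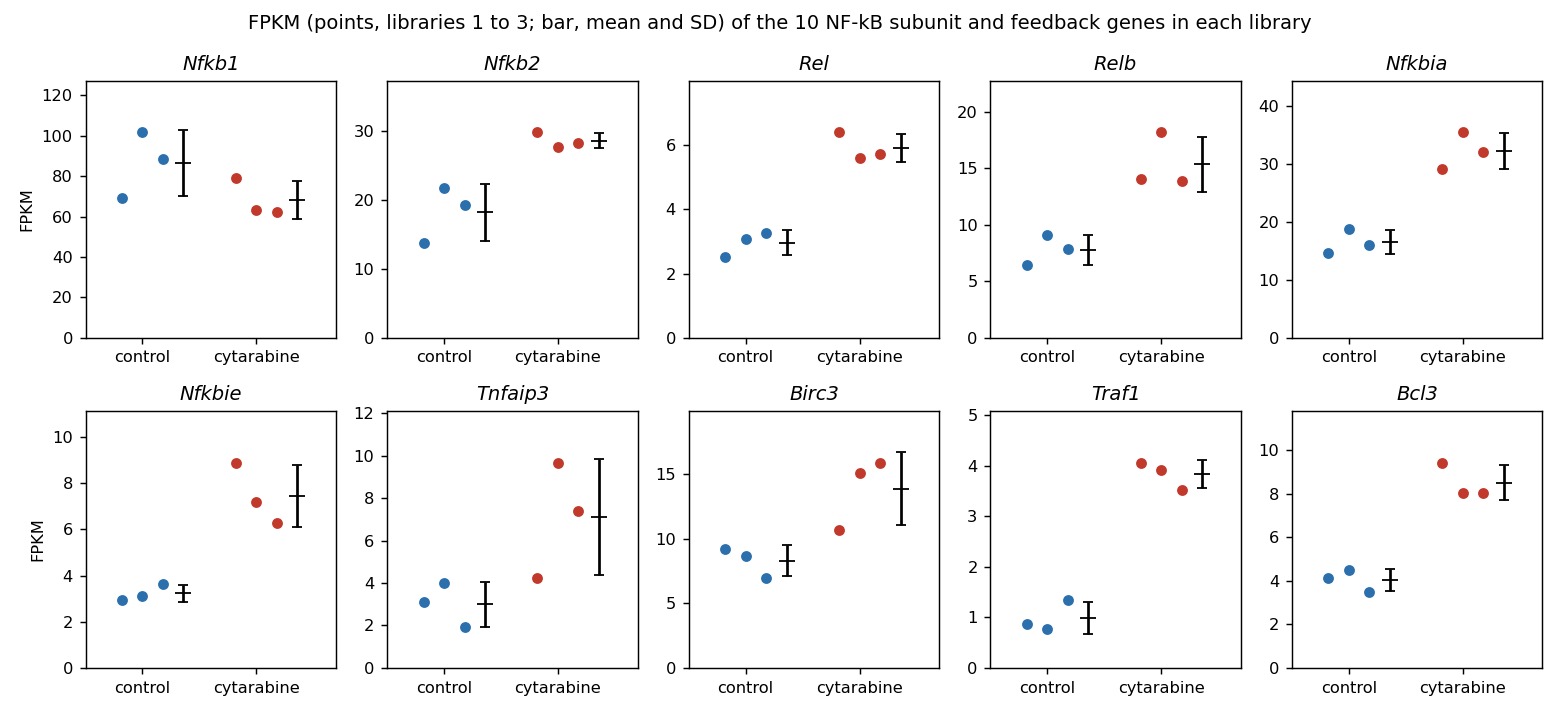
FPKM of the 10 members, with the vertical axis of each panel starting at 0. Points are the libraries 1 to 3 of each group from left to right, and bars give the mean and SD of 3 mice. The groups overlap for Nfkb1 and are separate for the other 9 genes, with the smallest gap for Tnfaip3.

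The subunit genes were described first. Nfkb1, on chromosome 3 from 135584655 to 135691547 of GRCm38, encodes p105, the precursor of p50. The libraries cytarabine 1, 2 and 3 gave 79.1, 63.0 and 62.4 FPKM, and control 1, 2 and 3 gave 69.2, 101.6 and 88.7 FPKM. The groups overlapped, with cytarabine 1 above control 1, and the log2 difference was -0.33 (standard error 0.17). Nfkb1 overlaps Gm43430, which lies on the same strand, so strand could not tell their reads apart there. Nfkb2, on chromosome 19 from 46304320 to 46312385, encodes p100, the precursor of p52. It gave 29.7, 27.7 and 28.2 FPKM after cytarabine, compared with 13.6, 21.7 and 19.2 FPKM for the controls. The cytarabine libraries lay close together and all above the controls, of which control 1 was lowest, and the log2 difference was 0.65 (standard error 0.17). The gene overlaps Psd and a noncoding RNA on the other strand, and whether strand was used in the counting is not given in the sources used here.
Rel, on chromosome 11 from 23736847 to 23770970, encodes c-Rel, a subunit prominent in lymphoid cells. It gave 6.40, 5.60 and 5.74 FPKM after cytarabine, compared with 2.53, 3.08 and 3.27 FPKM for the controls, a ratio of the means of 2.00 and a log2 difference of 0.81 (standard error 0.12). Relb, on chromosome 7 from 19606217 to 19629438, encodes the partner of p52 in the non-canonical arm. It gave 14.0, 18.2 and 13.9 FPKM after cytarabine, compared with 6.42, 9.12 and 7.85 FPKM for the controls, and its log2 difference was 0.90 (standard error 0.16). For both genes the lowest cytarabine library was over 1.5 times the highest control, at 1.71 times for Rel and 1.53 times for Relb.
Rela, the subunit gene that is not among the 10, encodes p65, the main activating partner of p50. It gave 25.3, 22.2 and 21.8 FPKM after cytarabine, compared with 17.8, 23.0 and 24.5 FPKM for the controls. The groups overlapped, with a log2 difference of 0.09 (limma, standard error 0.13, adjusted p = 0.699). Without control 1 the difference was -0.038.

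The make-up of the subunit transcripts was computed from the same values. The summed FPKM of the 5 subunit genes overlapped between the groups, with 141 ± 11.9 (SD, n = 3) for the cytarabine libraries against 137 ± 25.1 (SD, n = 3). Nfkb1 made up 51.1%, 46.1% and 47.2% of that sum in cytarabine 1, 2 and 3 and 63.2%, 64.1% and 61.8% in control 1, 2 and 3. Nfkb2 made up 20.3% ± 1.07 (SD, n = 3) after cytarabine against 13.2% ± 0.649 (SD, n = 3). The share of Relb was 9.09%, 13.3% and 10.5% with cytarabine against 5.86%, 5.75% and 5.47%, and that of Rel was 4.19% ± 0.132 (SD, n = 3) against 2.18% ± 0.205 (SD, n = 3). The share of Rela overlapped between the groups, at 16.4% ± 0.15 (SD, n = 3) and 15.9% ± 1.31 (SD, n = 3). Within a library, the ratio of Rel to Rela was 0.252 to 0.263 with cytarabine and 0.134 to 0.142 in controls and that of Nfkb2 to Nfkb1 was 0.376 to 0.453 against 0.197 to 0.217.

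**Figure D3:**
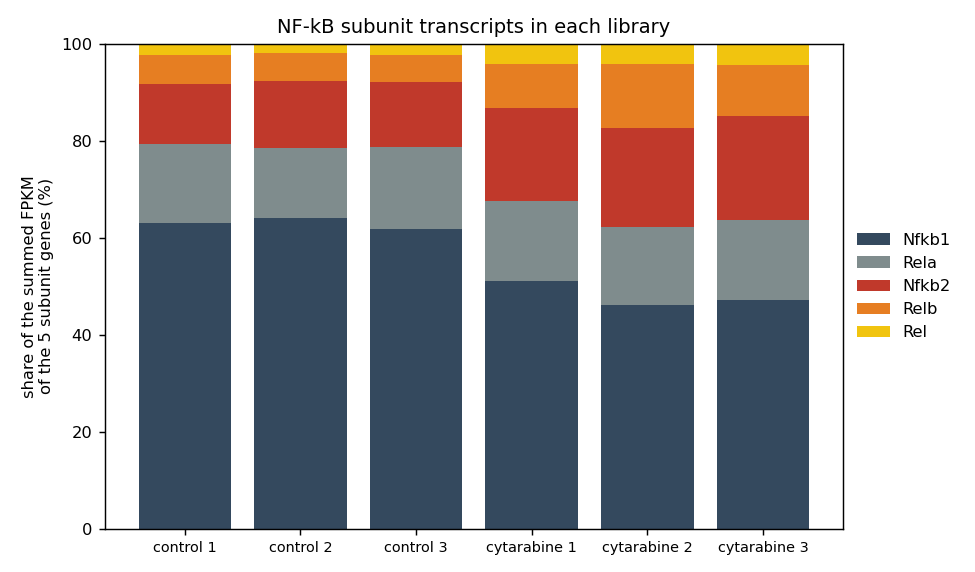
Stacked bars of the share of each of the 5 subunit genes in their summed FPKM (vertical axis, percent) in each library. Nfkb1 takes 61.8% to 64.1% in the control libraries and 46.1% to 51.1% in the cytarabine libraries, while the Rela band keeps about the same height, between 14.5% and 17.1%.

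The IkB genes followed. Nfkbia, on chromosome 12 from 55489410 to 55492647, encodes IkB-alpha, the inhibitor that NF-kB induces first in its negative feedback and whose promoter is printed above. It gave 29.1, 35.4 and 32.1 FPKM after cytarabine, compared with 14.6, 18.8 and 16.01 FPKM for the controls. The ratio of the means was 1.95 and the log2 difference 0.93 (standard error 0.12), the smallest standard error of the members. Nfkbie, on chromosome 17 from 45555703 to 45563169, encodes IkB-epsilon, a further induced inhibitor. It gave 8.90, 7.20 and 6.26 FPKM after cytarabine, compared with 2.94, 3.12 and 3.63 FPKM for the controls, with a log2 difference of 0.99 (standard error 0.15). Bcl3, on chromosome 7 from 19808462 to 19822770, encodes a nuclear IkB protein that binds p50 and p52 dimers on DNA. It gave 9.44, 8.05 and 8.06 FPKM after cytarabine, compared with 4.13, 4.496 and 3.51 FPKM for the controls, with a log2 difference of 0.92 (standard error 0.12). For Nfkbia, Nfkbie and Bcl3 the groups were far apart, and the lowest cytarabine library was 1.55, 1.72 and 1.79 times the highest control. Antisense genes overlap Bcl3, so its reads could not be told apart from theirs if strand was not used.
The other IkB family genes gave a mixed picture. Nfkbiz, which encodes the nuclear protein IkB-zeta, was at 8.94 to 10.5 FPKM with cytarabine and 5.69 to 6.57 FPKM in controls, a log2 difference of 0.61 (limma, standard error 0.10, adjusted p = 0.135) with all 3 cytarabine libraries above all controls. Nfkbid, which encodes IkB-NS, had overlapping groups and a log2 difference of 0.30 (limma, standard error 0.15, adjusted p = 0.352). Nfkbib, which encodes IkB-beta, was at 20.4 to 22.2 FPKM with cytarabine and 21.1 to 24.3 FPKM in controls, a log2 difference of -0.088 (limma, standard error 0.076, adjusted p = 0.525). The ratio of Nfkbia to Nfkbib was 1.39 to 1.60 in the cytarabine libraries and 0.659 to 0.839 in the controls.

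The remaining members encode regulators of ubiquitin and signalling complexes. Tnfaip3, on chromosome 10 from 19000910 to 19015657, encodes A20, a ubiquitin-editing enzyme that ends NF-kB signalling. It gave 4.25, 9.68 and 7.38 FPKM after cytarabine, compared with 3.10, 4.02 and 1.91 FPKM for the controls. Cytarabine 1 was only 1.06 times control 2, and the log2 difference of 0.99 had the largest standard error of the members, 0.33. Birc3, on chromosome 9 from 7848699 to 7873186, encodes cIAP2, a ubiquitin ligase that restrains NIK and blocks cell death. It gave 10.7, 15.1 and 15.9 FPKM after cytarabine, compared with 9.24, 8.71 and 6.97 FPKM for the controls, with a log2 difference of 0.67 (standard error 0.18). Cytarabine 1 was again the lowest of its group, 1.15 times the highest control.
Traf1, on chromosome 2 from 34941750 to 34961772, encodes an adaptor that joins TRAF2 at TNF family receptors. It gave 4.06, 3.90 and 3.52 FPKM after cytarabine, compared with 0.859, 0.759 and 1.35 FPKM for the controls. The groups were further apart than for any other member, the lowest cytarabine library being 2.61 times the highest control, with a ratio of the means of 3.87. Because its control level was near the added 1, the log2 difference depended on it and was 1.29 (standard error 0.19) with 1 added, 1.56 with 0.5 added and 1.89 with 0.1 added.
The close relatives of these genes differed less. Birc2, which encodes cIAP1, was at 16.7 to 19.5 FPKM with cytarabine and 15.0 to 15.8 FPKM in controls (log2 difference 0.24, standard error 0.078, adjusted p = 0.221 from limma). The ratio of Birc3 to Birc2 overlapped between the groups, since it was 0.547 in cytarabine 1 and 0.617 in control 1. Traf2 had overlapping groups, and the ratio of Traf1 to Traf2 was 0.187 to 0.211 with cytarabine against 0.039 to 0.072 in controls.

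Ordered by level, Nfkb1 was the highest and Traf1 the lowest of the members in both groups, and the other 8 genes fell between them. In the cytarabine libraries the order was Nfkb1, Nfkbia, Nfkb2, Relb, Birc3, Bcl3, Nfkbie, Tnfaip3, Rel and Traf1. In the controls Nfkb2 came before Nfkbia, and Birc3 before Relb. Neighbours whose ranges overlapped in both groups were Nfkbia and Nfkb2, Relb and Birc3, and the run of Bcl3, Nfkbie, Tnfaip3 and Rel.

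The members were not equally alike across the 6 libraries. The profile of each gene was taken as log2(FPKM + 1) minus its mean, and compared with the mean profile of the 10 by the root mean square distance. Nfkbia, at 0.095, and Rel, at 0.10, were nearest to the mean profile, and Nfkb1, at 0.58, and Tnfaip3, at 0.36, were farthest. Within the cytarabine group, cytarabine 1 held the highest value of 6 members and the lowest of 3, which were Tnfaip3, Birc3 and Nfkbia. Within the control group, control 1 held the lowest value of 6 members and control 2 the highest of 6.
Among 8678 genes outside the lists with a mean of at least 5 FPKM, those nearest to the mean profile were Xdh (distance 0.070), Acbd4 (0.074), Il7r (0.075), Gm4902 (0.096) and H2-T10 (0.10). Xdh encodes xanthine dehydrogenase, Il7r the receptor chain for interleukin-7 and H2-T10 a class Ib antigen-presenting molecule. Il7r gave 9.27, 10.9 and 10.4 FPKM after cytarabine, compared with 5.43, 6.85 and 5.93 FPKM for the controls. Likeness over 6 libraries is a description of these values.

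**Figure D4:**
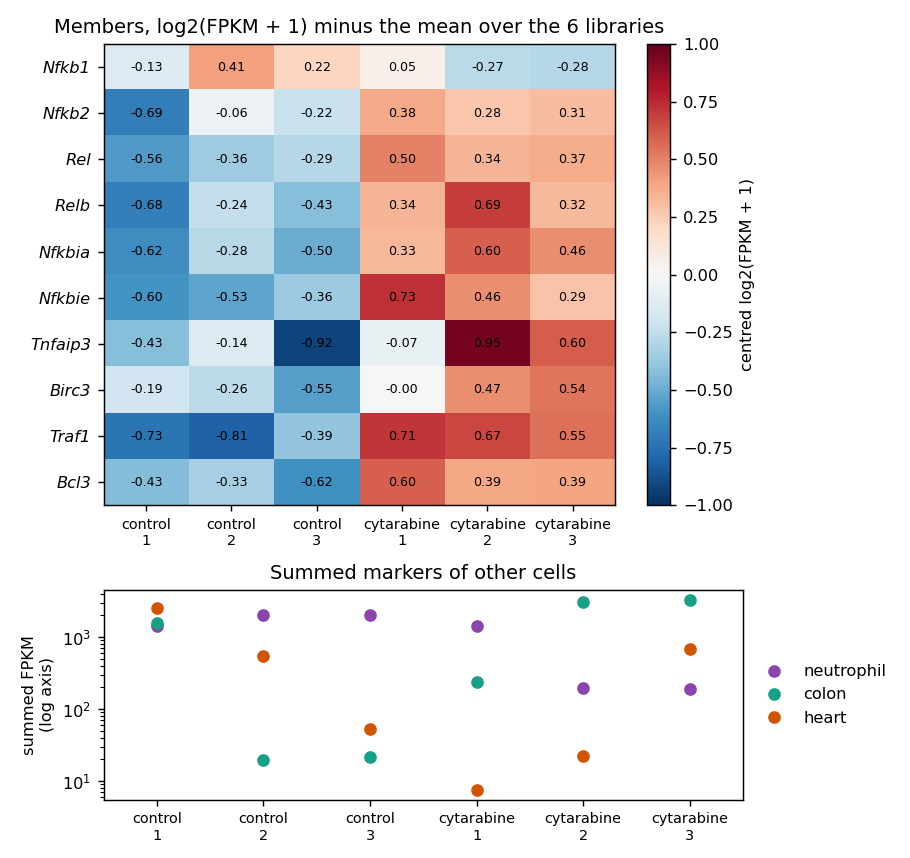
Upper panel, log2(FPKM + 1) of each member minus its mean over the 6 libraries, printed in each cell and coloured from blue (low) to red (high). Lower panel, summed FPKM of neutrophil, colon and heart markers in the same libraries on a log axis. The 9 members below Nfkb1 are blue in all control libraries, while the colon and heart sums divide the libraries across the groups and the neutrophil sum is lowest in cytarabine 2 and 3.

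Because other transcripts moved with the libraries, the members were also compared within the 2 sides of the colon division, where 1 library stands alone in each comparison and no test was made. Where colon transcripts were few (cytarabine 1 against control 2 and 3), the log2 difference was 0.83 for Rel, 0.72 for Nfkbia, 1.18 for Nfkbie, 1.32 for Traf1 and 1.07 for Bcl3. Where they were many (cytarabine 2 and 3 against control 1), the same differences were 0.92, 1.15, 0.97, 1.34 and 0.82. Since the groups did not overlap for 9 members, the sign of these differences was fixed for them, and only their sizes are described. Nfkb1 had differences of -0.26 and -0.14. The differences of Tnfaip3 and Birc3 were uneven, at 0.46 and 0.41 on the side with little colon transcript and 1.20 and 0.69 on the other.
Neutrophil genes were lower in cytarabine libraries, with 6 of the 8 below every control in all of them, beside 12.9% of all genes tested. The neutrophil sum was 1433 FPKM in cytarabine 1 and 1438 FPKM in control 1. The mean log2(FPKM + 1) of these 8 genes, the neutrophil score, was 3.55 to 5.76 with cytarabine and 6.23 to 6.82 in controls. The groups did not overlap in it, so a fit with this score as a covariate could only partly separate score and group. With this score as a covariate, a setting added after seeing the data, the log2 difference was 0.13 for Tnfaip3 and 0.11 for Birc3, 0.79 for Nfkbia and 0.83 for Relb, and between 0.88 and 1.43 for Nfkb2, Rel, Bcl3, Nfkbie and Traf1. In the same fit Nfkb1 had a difference of 0.12. B cells use NF-kB strongly, and the summed FPKM of 5 B cell markers was 6.34 to 14.4 with cytarabine, highest in cytarabine 2, and 5.91 to 7.09 in controls. The summed FPKM of 7 NK cell markers was 58.9 to 78.0 with cytarabine and 39.0 to 56.6 in controls. All 4 tested NK cell markers were above every control in every cytarabine library, which was true of 10.9% of all genes tested. Ncr1, Eomes and Tbx21 were under 1 FPKM in every library. Of 8 T cell markers, 5 were also under 1 FPKM in every library, among them Cd4 and Cd8a. The summed FPKM of 8 monocyte and macrophage markers was 91.3 to 104 with cytarabine and 88.6 to 236 in controls, highest in control 2, and 5 of 6 dendritic cell markers were under 1 FPKM in every library.

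The rest of the pathway was read from lists written by role with earlier results of these data known, so their shares are a description. The lists held 128 genes in all, of which 105 had a mean of at least 1 FPKM and were tested. None had an adjusted p under 0.05 from limma, while 24 were higher and 5 lower at an unadjusted p under 0.05, that is 22.9% and 4.76%, beside 7.60% and 9.81% of all genes tested. Their median log2 difference was 0.17. Without cytarabine 2 the 24 became 12 and the 5 became 2, and the 5 became 3 without cytarabine 3 or without control 3. The genes named below passed only the unadjusted threshold, apart from those named for their role.
Of 16 kinases, 2 were higher and 1 lower (12.5% and 6.25%, beside 7.60% and 9.81% of all genes tested). The IKK genes Chuk (IKK-alpha) and Ikbkb (IKK-beta) had overlapping groups, with log2 differences of 0.080 (adjusted p = 0.515 from limma) and -0.15 (adjusted p = 0.361 from limma). Ikbkg, which encodes the scaffold NEMO, was at 4.76 to 6.20 FPKM with cytarabine and 3.82 to 4.45 FPKM in controls, a log2 difference of 0.37. Map3k14, which encodes NIK of the non-canonical arm, had overlapping groups and a log2 difference of -0.036 (standard error 0.19), a sign that changed with the library left out. Irak2, a kinase below interleukin-1 and Toll-like receptors, was at 2.11 to 3.98 FPKM against 1.07 to 1.67 FPKM, and its relative Irak1 at 19.4 to 21.5 FPKM against 24.5 to 26.9 FPKM. The kinases thus had a median log2 difference of 0.058, near that of all genes.
Of 26 tested adaptors and ubiquitin regulators, 7 were higher and 1 lower (26.9% and 3.85%, beside the same shares of all genes). Bcl10, part of the complex that links antigen receptors to IKK, was at 40.2 to 47.8 FPKM with cytarabine and 30.7 to 36.9 FPKM in controls. Tnip1, a partner of A20, had a log2 difference of 0.26, and Zc3h12a, a ribonuclease of inflammatory mRNAs, one of 0.45. Traf4, Tradd, Birc2 and Tax1bp1 made up the rest of the higher genes, with log2 differences of 0.62, 0.42, 0.24 and 0.55, and the groups overlapped for Tradd and Tax1bp1. With the neutrophil score as a covariate, the difference of Traf4 was 0.0055, those of the kinase genes Irak2 and Ikbkg were 0.13 and 0.046, and that of Prkcq was -0.070. Prkcq, a protein kinase C of T cell receptor signalling, was lower, with a log2 difference of -0.31.

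Of 25 tested receptors and ligands, 4 were higher and none lower, beside 7.60% and 9.81% of all genes tested. Cd28, a costimulatory receptor, gave 36.4, 30.9 and 37.9 FPKM after cytarabine, compared with 14.7, 12.4 and 14.0 FPKM for the controls, a log2 difference of 1.29 (limma, standard error 0.11, adjusted p = 0.128). Tnfrsf9, the receptor 4-1BB, which signals through TRAF1 and TRAF2, gave 13.1, 7.55 and 10.4 FPKM after cytarabine, compared with 1.56, 4.32 and 3.01 FPKM for the controls, a log2 difference of 1.55 (limma, standard error 0.32, adjusted p = 0.151). Tnfrsf18, the receptor GITR, was at 3.82 to 4.66 FPKM against 1.21 to 2.92 FPKM. The ligand gene Tnf, both an inducer and a target of the pathway, gave 36.1, 22.3 and 30.8 FPKM after cytarabine, compared with 17.3, 19.04 and 19.6 FPKM for the controls (log2 difference 0.62, standard error 0.18, adjusted p = 0.193 from limma). For these 4 genes every cytarabine library was above every control. Il18, singled out after its values were seen because its log2 difference of 2.71 was the largest of the lists, gave 5.08, 54.1 and 63.2 FPKM after cytarabine, compared with 28.4, 0.733 and 0.526 FPKM for the controls, so that it followed the colon division and not the groups. Ltbr, Tnfrsf11a and Sdc4 of the lists were likewise higher in cytarabine 2 and 3 and control 1 than in the other libraries. The part of such genes in the list medians was not tested.
Of 30 tested targets with other functions, 10 were higher and 3 lower (33.3% and 10%, beside 7.60% and 9.81% of all genes tested). Il2ra, the inducible chain of the interleukin-2 receptor, gave 11.3, 8.34 and 8.78 FPKM after cytarabine, compared with 1.24, 4.21 and 3.03 FPKM for the controls, a log2 difference of 1.53 (limma, standard error 0.32, adjusted p = 0.151). Irf1, a transcription factor of interferon responses, was at 64.5 to 99.1 FPKM against 49.2 to 51.4 FPKM, and Icam1, an adhesion molecule, at 27.6 to 38.6 FPKM against 21.2 to 24.7 FPKM. Slc2a6, Ier5, Sqstm1, Psmb9, Marcksl1, Gadd45b and Cxcl10 had log2 differences of 0.98, 0.41, 0.40, 0.37, 0.31, 0.68 and 1.67, and the groups overlapped for Gadd45b and Cxcl10. The 3 lower genes were Bcl2l1, which encodes the survival protein BCL-XL, Myc, a growth regulator, and Sod2, a mitochondrial antioxidant enzyme, with log2 differences of -0.50, -0.56 and -0.28. Bcl2l1 gave 77.9, 57.0 and 56.9 FPKM after cytarabine, compared with 83.9, 90.6 and 94.8 FPKM for the controls, without overlap. With the neutrophil score as a covariate, the differences of Bcl2l1 and Myc were -0.019 and -0.040 and that of Sqstm1 was 0.048. The cytokine and chemokine targets Il6, Ccl3, Ccl4, Cxcl2, Ifng and Nos2 were among the 23 listed genes with a mean under 1 FPKM, which were not tested.

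**Figure D5:**
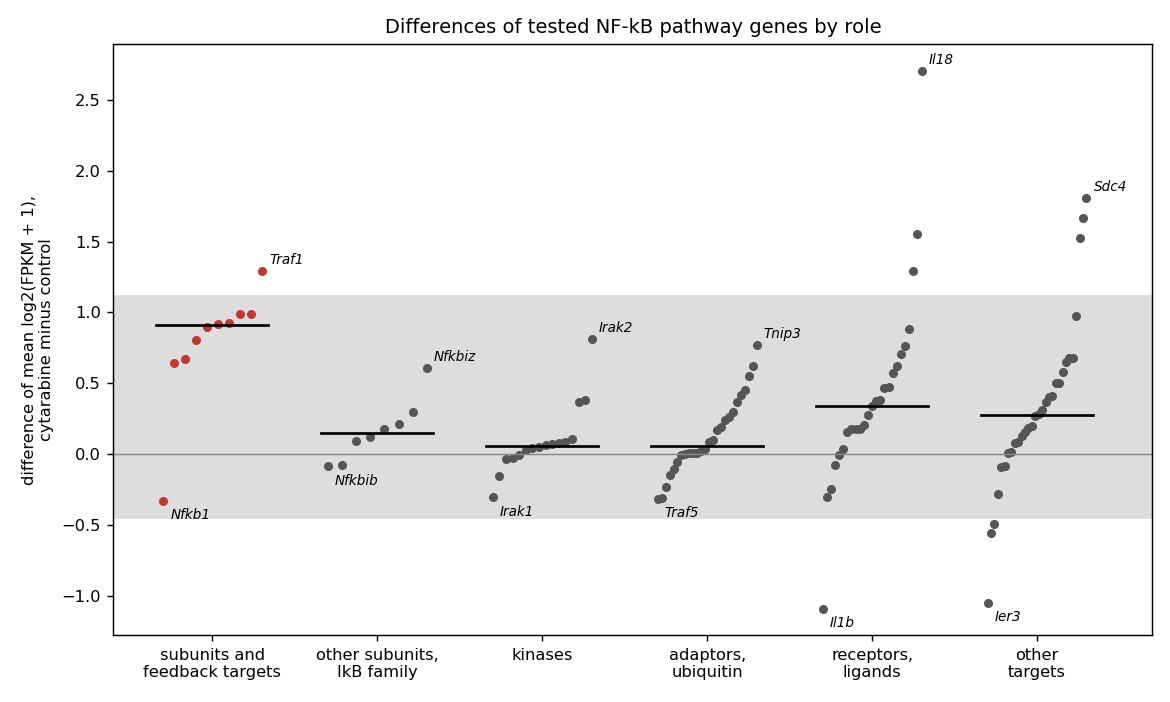
Difference of the group means of log2(FPKM + 1), cytarabine minus control, for the 10 members (red) and the 105 tested genes of the other lists (grey), in order of size within each role. Horizontal bars are medians, the shaded band spans the 5th to 95th percentile of all 11703 genes tested, and the lowest and highest gene of each list are labelled, whether or not they passed any threshold. The medians are 0.91 for the members, 0.15 for other subunit and IkB genes, 0.058 for kinases and for adaptors, 0.34 for receptors and ligands, and 0.27 for other targets.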

How the data were processed

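The 6 libraries were made from sorted C1498 cells of 6 mice. The authors mapped single-end reads to mm10 with TopHat2 2.0.13, Bowtie2 2.2.3 and SAMtools 0.1.19 and deposited 1 FPKM value per gene from Cufflinks 2.2.1, per the labels and the methods of the study. The gene annotation, the Cufflinks options and the strand setting are not given in the sources used here. FPKM are not counts, so no count test was run, and depth was inferred from the steps of low values of genes with 1 transcript in GENCODE M21 (GRCm38), assuming fragments of 200 bases.

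After a filter on low values (mean FPKM of 1 or more, 11703 of 23284 genes), the values were fitted with limma 3.58.1 in R 4.3.3 on log2(FPKM + 1), with eBayes and trend, two-sided, with Benjamini-Hochberg adjustment. The fit was also run on simulated data with independent noise and differences larger than those of the members. That run does not measure power or error rates for the differences described here. The study states no test per gene. The members and lists were chosen with earlier results of these data known. No p is given for the members. Named are all members, each listed gene at an unadjusted p under 0.05, Rela, Chuk, Ikbkb, Ikbkg and Map3k14, and the 5 genes nearest in profile. Other genes were named after their values were seen. List symbols were matched through RefSeq synonyms where the files use older ones. Groups came from the source names in the labels. Nothing states that the mice were handled as separate experiments, so the standard errors measure the spread between these libraries. Replicate numbers are shared between groups, but same-numbered libraries are different mice and their deviations from the group means correlated at -0.71, -0.25 and -0.59, so they were not treated as pairs. Promoters are from RefSeq (GRCm38.p6). Python 3.11.15 and matplotlib 3.10.9 were used for the plots.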

Additional observations from a re-analysis of the deposited data

How the results depend on the processing

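The 9 members that were higher with cytarabine had positive differences in all 169 values computed, but since their groups do not overlap, leaving out a library or splitting the libraries could not have changed the sign. With a mean of at least 5 FPKM required, 7 remained without overlap because Rel and Traf1 were not tested. The median of the members was 0.69 within the libraries with little colon transcript and 0.81 to 0.98 with a replicate left out. Nfkb1 reversed to 0.12 with the neutrophil score.

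Genes with an adjusted p under 0.05 from limma numbered 0 (2038 at an unadjusted p under 0.05), 1 with a pseudocount of 0.1 or 0.5 or no filter, 2 without the trend, and 0 to 6 with a replicate left out. None was a member or a listed pathway gene in any fit. Of all genes, 593 to 2062 were higher and 582 to 2049 lower at an unadjusted p under 0.05 with a replicate left out, both most without cytarabine 1, and 584 were lower with the neutrophil score. Among the pathway genes, 12 to 27 were higher and 2 to 7 lower with a replicate left out. The lower genes were 2 with the colon score and 1 with the neutrophil score.

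In the fit with a replicate block, 479 genes of all tested were higher and 515 lower, and 17 pathway genes were higher and 3 lower. Same-numbered libraries share only a number.

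Some differences of pathway genes changed sign. Map3k14 had 0.19 with the colon score, 0.076 with the neutrophil score, and -0.21 to 0.080 with a replicate left out. Rela had -0.038 to 0.18 with a replicate left out. With the neutrophil score, added after seeing the data, Tradd had -0.055 (0.42 without it), Tax1bp1 -0.077 (0.55), Gadd45b -0.027 (0.68) and Chuk -0.053 (0.080). That score did not overlap between the groups, so its fit could only partly separate score and group. The cause of these changes of sign was not tested. Depth limits the lowest levels, where 3 reads of a 2000-base transcript amount to 0.080 to 0.131 FPKM.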
